A study of Mus musculus with 6 samples.

Results

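The genes described are 9 that are used to recognize macrophages in tumors, namely C1qa, C1qb, C1qc, Apoe, Lyz2, Cd68, Csf1r, Trem2 and Itgam, measured in RNA of tumor endothelial cells (TECs) isolated from mice. They are the rows of the expression table whose gene name equals one of these symbols. All 9 were found, among 23473 rows of RefSeq genes in a table of 56826 rows, the others being FANTOM3 transcripts. Macrophages enter tumors as monocytes, take up dead cells and lipids, and settle in close contact with vessels. The colony-stimulating factor 1 receptor keeps them alive, C1q and lysozyme are among their most abundant secreted products, and TREM2 senses lipids on the cells they engulf. None of these genes is a marker of endothelium, and Lyz2 and Itgam are also strong in neutrophils and monocytes.

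The libraries came from Lewis lung carcinoma (LLC) tumors, which derive from a mouse lung cancer cell line, carried by C57BL/6 mice given as 8 weeks of age. In NIC eCA mice, Cdh5-Cre ERT under the control of tamoxifen removes a floxed stop at Rosa26 and lets endothelial cells make the intracellular domain of Notch1, so that Notch signaling is on without a ligand. The control (Ctrl) mice are wild type per the labels, and both groups bore LLC tumors. The study's methods give tamoxifen at 100 mg/kg daily for 5 days for Cre induction. The sources used here do not say whether the Ctrl mice carried Cre or received tamoxifen, so effects of Notch, Cre and tamoxifen cannot be told apart. There were 3 libraries per group, each from its own mouse per the methods. The methods place tumor collection on day 14 after inoculation, whereas the labels say that collection days differed. TECs were pulled out of digested tumors with beads against CD31 (the product of Pecam1), which also binds to some leukocytes and platelets, and the labels give a purity of over 90%. The comparison asks how RNA of macrophage genes in the isolated cells differed between NIC eCA and Ctrl mice.

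Values are RPKM, the reads on a gene per kilobase of its length, scaled to the total of reads assigned in the library, so that levels of different genes can be set side by side. Whole read numbers could be recovered from them, and RefSeq rows held 29818454, 30769916 and 30196775 reads in Ctrl replicates 1, 2 and 3 and 28877355, 27793301 and 29194187 reads in NIC eCA replicates 1, 2 and 3. The weakest of the 9 genes, Trem2, still had 2712 to 5695 reads per library, so counting error was small beside the spread between mice. All 12 endothelial markers searched were present. Their most abundant, Pecam1, had 134.7, 47.5 and 82.6 RPKM in Ctrl libraries and 125, 153.6 and 141.6 RPKM in NIC eCA libraries. The summed level of the 12 markers was 573.9, 223.1 and 293.3 RPKM in Ctrl and 488.5, 637.5 and 590.6 RPKM in NIC eCA libraries, lowest in Ctrl replicate 2 and with overlapping groups. Ptprc, the pan-leukocyte antigen CD45, had 45.5, 27.8 and 76.2 RPKM in Ctrl and 51.7, 59.1 and 53.7 RPKM in NIC eCA libraries. Macrophage genes were therefore measured in libraries that held both endothelial and leukocyte RNA. In such bulk RNA, fewer cells of a type and less RNA per cell cannot be told apart.

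Several of the macrophage genes were among the most abundant RNAs of the TEC libraries. Ranked by RPKM among RefSeq rows, Lyz2 held places 3 to 8 and Apoe places 4 to 20 in the 6 libraries, and the C1q genes lay between places 35 and 191. The 9 genes together took 2.54%, 1.49% and 1.37% of the reads on RefSeq rows in Ctrl libraries and 1.71%, 1.62% and 0.957% in NIC eCA libraries. Ctrl replicate 1 had the largest share and NIC eCA replicate 3 the smallest, and the groups overlapped. The ribosomal RNA precursor Rn45s took 3.86%, 6.4% and 1.87% of the reads in Ctrl and 0.82%, 1.06% and 1.92% in NIC eCA libraries. Without Rn45s the 9 genes took 2.64%, 1.6% and 1.4% in Ctrl and 1.72%, 1.64% and 0.976% in NIC eCA libraries, again with overlap. By level the genes fell into 3 tiers that did not overlap in any library. Lyz2 and Apoe formed the top tier, with means over the 6 libraries of 4103 and 3393 RPKM, and their ranges overlapped. C1qa, C1qc and C1qb followed at 811, 766 and 741 RPKM with overlapping ranges. C1qa was above C1qb in all 6 libraries, while the place of C1qc changed between libraries. Cd68, Itgam, Csf1r and Trem2 formed the lowest tier at 192, 154, 126 and 84.3 RPKM, and the ranges of neighbors in this order overlapped too.

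Of the 9 genes, 2 were higher in NIC eCA TECs and 0 were lower at an adjusted p under 0.05 (limma on log2(RPKM + 1), Benjamini-Hochberg over all genes tested). Cd68 and Itgam were the pair called higher. Over the 12320 RefSeq genes with a mean of at least 1 RPKM, which included all 9, 1671 (13.6%) were called, 725 (5.88%) higher and 946 (7.68%) lower. At an unadjusted p under 0.05 the number of lower genes among the 9 was also 0, and limma voom on the recovered reads again gave 0. Leaving out 1 library, the count higher was 1 without Ctrl replicate 1 and 0 without Ctrl replicate 2, NIC eCA replicate 1 or NIC eCA replicate 2. The calls of all genes also rested on single libraries, and were 26 higher and 1 lower without NIC eCA replicate 2, 91 and 14 without NIC eCA replicate 1, 242 and 137 without Ctrl replicate 2, and 536 lower without Ctrl replicate 1. The NIC eCA libraries lay wholly above the Ctrl libraries for 2 of the 9 and wholly below for 0, where 16.5% of all tested genes were separated upward and 24.4% downward. The median log2 fold change of the 9 was -0.30, and that of all tested genes was -0.05. The median of the 9 rested on single libraries too, at -0.05 without Ctrl replicate 1, -0.05 without NIC eCA replicate 3 and -0.476 without NIC eCA replicate 1. A log2 fold change here is the NIC eCA mean minus the Ctrl mean of log2(RPKM + 1), so that 1 stands for a doubling. The error given with it is its standard error (SE).

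**Figure D1:**
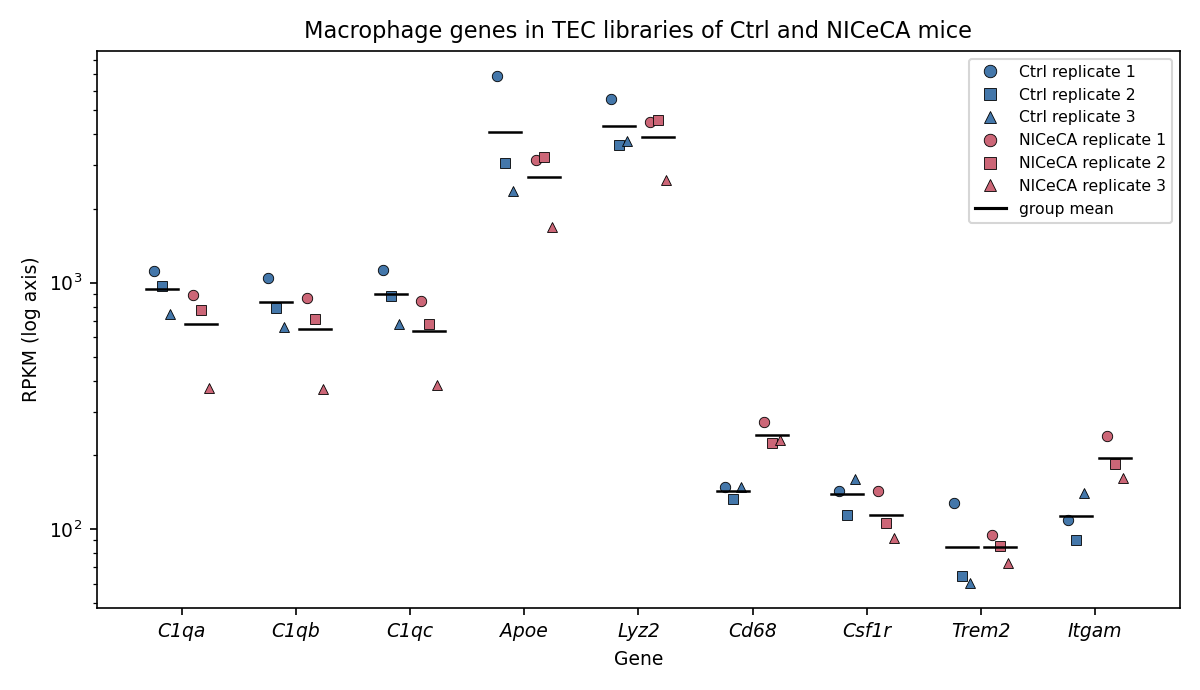
RPKM of the 9 macrophage genes on a log axis, with 1 point per library (3 Ctrl and 3 NIC eCA mice, symbols by replicate) and a line at each group mean. For Cd68 the 3 NIC eCA libraries (223 to 272 RPKM) and for Itgam the 3 NIC eCA libraries (161 to 238.5 RPKM) lie above all Ctrl libraries, while the groups of the other 7 genes overlap.

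C1qa, C1qb and C1qc encode the chains of C1q, the molecule that starts the classical complement pathway and coats dying cells. They lie next to each other on chromosome 4, on the minus strand, in the order C1qb (136880145 to 136886177), C1qc (136889802 to 136892914) and C1qa (136895916 to 136898844), in coordinates of GRCm38. C1qa had 1112, 965 and 746 RPKM in Ctrl libraries and 891, 776.5 and 375 RPKM in NIC eCA libraries. C1qb had 1047.5, 786 and 660.2 RPKM in Ctrl and 869, 711 and 371 RPKM in NIC eCA libraries. C1qc had 1124, 885 and 677.5 RPKM in Ctrl and 845, 682 and 385 RPKM in NIC eCA libraries. For all 3 genes Ctrl replicate 1 was highest and NIC eCA replicate 3 lowest, with NIC eCA replicate 1 above Ctrl replicate 3, so the groups overlapped. The log2 fold changes were -0.54 (SE 0.32) for C1qa, -0.41 (SE 0.32) for C1qb and -0.53 (SE 0.31) for C1qc, with limma adjusted p = 0.263, 0.383 and 0.249. The 95% confidence interval of the fold went from 0.409 to 1.15 for C1qa, from 0.449 to 1.25 for C1qb and from 0.422 to 1.13 for C1qc, so each interval included 1. Without NIC eCA replicate 3 the fold changes were the nearest to 0 of the fits that left out 1 library, at -0.16 for C1qa, -0.05 for C1qb and -0.21 for C1qc.

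Within a library the C1q genes kept nearly fixed proportions. The ratio of C1qb to C1qa was 0.942, 0.814 and 0.885 in Ctrl and 0.974, 0.916 and 0.989 in NIC eCA libraries. The ratio of C1qc to C1qa was 1.01, 0.917 and 0.908 in Ctrl and 0.948, 0.878 and 1.03 in NIC eCA libraries. Across the 6 libraries these ratios spanned 1.21-fold and 1.17-fold, against 2.97-fold for C1qa itself. Pearson's r of log2(RPKM + 1) between the 3 genes over the 6 libraries was 0.984 to 0.987, given as a description of libraries that also share depth and sorting.

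Apoe encodes apolipoprotein E, a lipid carrier that foamy macrophages secrete, and lies on the minus strand of chromosome 7 (19696244 to 19699166). It had 6896, 3050.1 and 2349 RPKM in Ctrl and 3147, 3227 and 1689 RPKM in NIC eCA libraries. Ctrl replicate 1 stood at more than the level of any other library, the remaining 5 overlapped, and the log2 fold change was -0.51 (SE 0.42, limma adjusted p = 0.413). Without Ctrl replicate 1 it was -0.05. A FANTOM3 transcript on the same strand (19696273 to 19697095) lies inside the gene and had a mean of 4637.5 RPKM, and its reads cannot be separated from those of Apoe. Lyz2, on the minus strand of chromosome 10 (117277541 to 117282272), encodes the lysozyme of macrophages and other myeloid cells. It had 5555, 3635 and 3759.7 RPKM in Ctrl and 4493, 4562 and 2611 RPKM in NIC eCA libraries. The groups overlapped, with Ctrl replicate 1 highest and NIC eCA replicate 3 lowest. Its log2 fold change of -0.17 (SE 0.27, limma adjusted p = 0.683) was positive without Ctrl replicate 1 (0.03), without NIC eCA replicate 3 (0.10) and after quantile normalization (0.0084). The near-identical Lyz1 lies beside it (117287795 to 117292868), and the sources used here do not say how reads were split between the copies, so both values are uncertain. Lyz1 had 403.8, 313.9 and 154.7 RPKM in Ctrl and 205.9, 373.6 and 174.4 RPKM in NIC eCA libraries, at 11.6 to 24.3 parts of Lyz2 to 1 of Lyz1.

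Cd68 encodes a glycoprotein of the lysosomal membrane that is used to stain macrophages, and lies on the minus strand of chromosome 11 (69664371 to 69666062). It had 148.1, 133 and 148.2 RPKM in Ctrl libraries and 272, 223 and 230.5 RPKM in NIC eCA libraries. Every NIC eCA library lay above every Ctrl library, and the Ctrl libraries spanned 1.12-fold. The means were 143.0 ± 8.88 RPKM in Ctrl and 241.6 ± 26.2 RPKM in NIC eCA TECs (± SD, n = 3), so that Cd68 rose by a fold of 1.68 (95% confidence interval 1.35 to 2.08) and a log2 fold change of 0.75 (SE 0.13, limma adjusted p = 0.0223). Cd68 was no longer called without Ctrl replicate 2 (log2 fold change 0.70, adjusted p = 0.0564), without NIC eCA replicate 1 (0.66, 0.0943) and without NIC eCA replicate 2 (0.80, 0.0949), and with a replicate block (0.75, 0.0566). After quantile normalization the log2 fold change was 0.37 (adjusted p = 0.0722).

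Itgam encodes CD11b, the αM chain that pairs with the β2 chain as complement receptor 3, and lies on the plus strand of chromosome 7 (128062640 to 128118491). It had 109, 90.5 and 140.1 RPKM in Ctrl libraries and 238.5, 183 and 161 RPKM in NIC eCA libraries. The lowest NIC eCA library, replicate 3, lay above the highest Ctrl library, which was also replicate 3. Group means were 113 ± 25.1 RPKM for Ctrl and 194 ± 40.1 RPKM for NIC eCA TECs (± SD, n = 3), and Itgam rose by a fold of 1.71 (95% confidence interval 1.23 to 2.39) and a log2 fold change of 0.77 (SE 0.21, limma adjusted p = 0.0476). This call was close to the threshold. Itgam was no longer called without Ctrl replicate 1 (log2 fold change 0.76, adjusted p = 0.0820), Ctrl replicate 2 (0.63, 0.117), NIC eCA replicate 1 (0.62, 0.154) or NIC eCA replicate 2 (0.81, 0.156), with a replicate block (0.77, 0.0863), with no filter on low values (0.77, 0.0861) and after quantile normalization (0.38, 0.193). An antisense FANTOM3 transcript overlaps the gene at a mean of 0.726 RPKM, and the sources used here do not say whether reads were counted by strand.

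Csf1r encodes the receptor for CSF1 and IL-34 on which most tissue macrophages depend, and lies on the plus strand of chromosome 18 (61105572 to 61131139). It had 143, 114.5 and 159 RPKM in Ctrl libraries and 143.1, 106 and 91.6 RPKM in NIC eCA libraries. NIC eCA replicate 1 was level with Ctrl replicate 1, the groups overlapped, and the log2 fold change was -0.30 (SE 0.20, limma adjusted p = 0.314). After quantile normalization it was -0.67 (adjusted p = 0.0553). Trem2, on the plus strand of chromosome 17 (48346401 to 48352276), encodes a lipid receptor of macrophages that signals through the adaptor DAP12. It had 127, 64.7 and 60.7 RPKM in Ctrl libraries and 94.9, 85.5 and 72.6 RPKM in NIC eCA libraries. The 3 NIC eCA libraries lay between Ctrl replicate 1 and the other Ctrl libraries, at means of 84.2 ± 37.3 RPKM in Ctrl and 84.4 ± 11.2 RPKM in NIC eCA (SD, n = 3). Its log2 fold change of 0.08 (SE 0.28, limma adjusted p = 0.862) was 0.41 without Ctrl replicate 1. It was negative without Ctrl replicate 2 (-0.07), Ctrl replicate 3 (-0.11) or NIC eCA replicate 1 (-0.01) and after quantile normalization (-0.24).

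Ratios within a library do not depend on its total, and they set the genes apart from each other. Itgam stood to Csf1r at 0.764, 0.79 and 0.882 in Ctrl and at 1.67, 1.72 and 1.75 in NIC eCA libraries. All 3 NIC eCA ratios were above all 3 Ctrl ratios, and neither group spanned as much as the gap between them. Cd68 stood to Csf1r at 1.04, 1.16 and 0.933 in Ctrl and at 1.9, 2.1 and 2.51 in NIC eCA libraries. Itgam stood to Itgb2, which encodes its β2 partner, at 0.892, 0.952 and 0.808 in Ctrl and at 1.5, 1.3 and 1.42 in NIC eCA libraries. Both ratios were again higher in every NIC eCA library. The ratio of Lyz2 to C1qa was 4.99, 3.77 and 5.04 in Ctrl and 5.04, 5.88 and 6.96 in NIC eCA libraries, a separation by less than the last digit shown. Apoe to C1qa was 6.2, 3.16 and 3.15 in Ctrl and 3.53, 4.16 and 4.5 in NIC eCA libraries, and Trem2 to C1qa was 0.114, 0.067 and 0.0813 against 0.106, 0.11 and 0.194, both with overlapping groups. Set against Ptprc, all 9 genes had overlapping groups, with C1qa at 24.4, 34.7 and 9.8 in Ctrl and 17.3, 13.1 and 6.98 in NIC eCA libraries, and Cd68 at 3.25, 4.78 and 1.95 against 5.26, 3.77 and 4.29. Set against the endothelial gene Pecam1, C1qa stood at 8.26, 20.3 and 9.03 in Ctrl and at 7.13, 5.05 and 2.65 in NIC eCA libraries, lower in every NIC eCA library. No other of the 9 genes, Cd68 and Itgam included, was set against Pecam1. The ratios with Itgb2, Pecam1 and Lyz1 and that of Cd68 to Csf1r were chosen after their values were seen, and no ratio was tested.

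**Figure D2:**
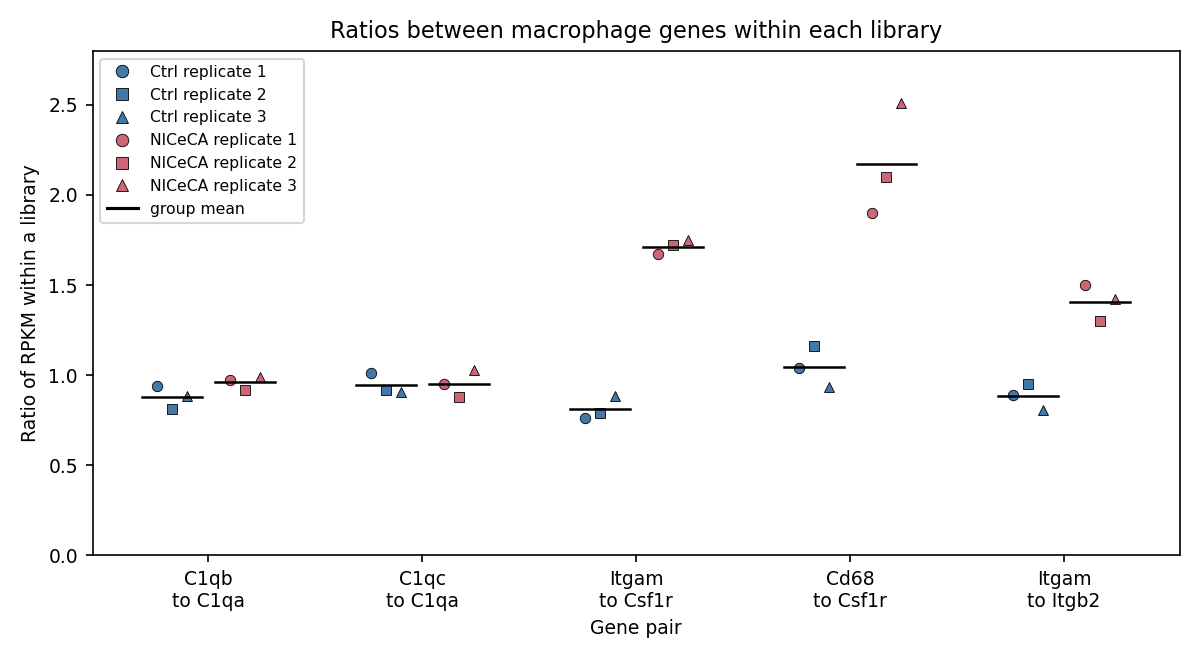
Ratios of RPKM between pairs of genes, with 1 point per library (3 Ctrl and 3 NIC eCA mice, symbols by replicate) and a line at each group mean. C1qb and C1qc keep ratios of 0.814 to 1.03 to C1qa in all 6 libraries, while the ratios of Itgam to Csf1r go from 0.764 to 0.882 in Ctrl libraries and from 1.67 to 1.75 in NIC eCA libraries.

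The profiles of the 9 genes over the 6 libraries fell into different patterns. Cd68 and Itgam were alike, with r of 0.931. Their r with the C1q genes was negative, from -0.445 to -0.322 for Cd68 and from -0.342 to -0.194 for Itgam. Lyz2 and Apoe lay closer to the C1q genes, with r of 0.866 to 0.924 for Lyz2 and 0.831 to 0.884 for Apoe. Among 5310 other genes with a mean of at least 10 RPKM, those most like C1qa were Ly86 (r = 0.983), Camk1 (0.972) and Rnf41 (0.968). Abhd12 (0.986), Daglb (0.982) and Ly86 (0.980) were most like C1qb, and Camk1 (0.992), Rnf41 (0.989) and Ly86 (0.971) most like C1qc, so that the chains shared part of their nearest genes. Apoe was nearest to Rgl2 (0.959), Abhd4 (0.931) and Rnf215 (0.928), and Lyz2 to BC096441 (0.984), Osgep (0.973) and Tnfsf13 (0.968). Shfm1 (0.996), Gde1 (0.995) and Selenbp1 (0.995) were most like Cd68, and Atp6v0d1 (0.995), Ripk3 (0.993) and Gab2 (0.992) most like Itgam. Csf1r was nearest to Ddi2 (0.981), Sharpin (0.979) and P2ry6 (0.976), and Trem2 to Kank3 (0.966), Efcab4a (0.958) and Snrk (0.955). Group means were not removed, so a difference between the groups enters each r, and Cd68 and Itgam were both called higher in NIC eCA TECs. With 6 points and 5310 candidates the values are given as a description, without a p-value.

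Cd68 and Itgam were the genes called higher, and the C1q genes shared 1 profile, so the 250 bases before the RefSeq start of Cd68, Itgam and C1qb are shown, from RefSeq in GRCm38.p6. Each window, read 5′ to 3′ in the direction of its gene, lies upstream of the gene and overlaps no exon of the GENCODE annotation. Capitals mark matches on either strand to GAGGAA, the core bound by the myeloid factor PU.1, to TGGGAA, the core bound by the Notch effector RBPJ, and to TGAGTCA, the AP-1 site. The PU.1 and RBPJ cores share their last 4 letters, so a match to either may belong to related factors. The TATA box (TATAAA) was searched too and is not in these 3 windows.
Cd68, chr11:69666171-69666420, minus strand: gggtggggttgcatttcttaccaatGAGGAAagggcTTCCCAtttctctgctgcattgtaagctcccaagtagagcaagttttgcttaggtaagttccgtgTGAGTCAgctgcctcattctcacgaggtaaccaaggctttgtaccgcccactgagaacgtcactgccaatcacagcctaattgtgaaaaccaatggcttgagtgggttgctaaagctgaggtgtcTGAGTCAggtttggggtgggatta
Itgam, chr7:128062390-128062639, plus strand: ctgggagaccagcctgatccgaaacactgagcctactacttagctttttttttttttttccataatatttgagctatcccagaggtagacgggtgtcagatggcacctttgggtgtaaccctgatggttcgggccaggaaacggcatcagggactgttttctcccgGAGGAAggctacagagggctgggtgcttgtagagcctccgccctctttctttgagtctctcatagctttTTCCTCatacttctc
C1qb, chr4:136886201-136886450, minus strand: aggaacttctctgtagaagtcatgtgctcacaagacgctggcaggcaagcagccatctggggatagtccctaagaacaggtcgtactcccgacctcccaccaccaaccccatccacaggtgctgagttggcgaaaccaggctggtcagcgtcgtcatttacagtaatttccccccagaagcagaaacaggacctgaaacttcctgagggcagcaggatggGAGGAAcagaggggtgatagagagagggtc
Cd68 has 1 match to the PU.1 core at 225 to 220 bases before the start, 1 to the RBPJ core on the opposite strand at 214 to 209, and 2 to the AP-1 site at 149 to 143 and 24 to 18. Itgam has 2 matches to the PU.1 core, at 84 to 79 and, on the opposite strand, 15 to 10 bases before the start. C1qb has 1, at 30 to 25. Matches in the windows before C1qa and C1qc were not listed, so C1qb does not stand for those genes. Of the first entries of 27025 genes, cut to the same 250 bases, 23.1% hold the PU.1 core, 21.5% the RBPJ core, 4.43% the AP-1 site and 13% the TATA box on either strand. A match describes letters and is not evidence of binding.

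Of 22 other genes of macrophages, all tested, 2 were called higher and 1 lower, which is 13.6%, the same share as over all tested genes. The list had a median log2 fold change of -0.06 (0.04 with trimmed mean scaling, 0.04 with voom and -0.178 with quantile normalization). It was 0.152 without Ctrl replicate 1, 0.235 without NIC eCA replicate 3, -0.162 without NIC eCA replicate 1 and 0.07 at a mean of at least 5 RPKM. Fcgr1, the high-affinity receptor for IgG, had 25.3, 27.9 and 35.7 RPKM in Ctrl and 96.2, 87.1 and 75.5 RPKM in NIC eCA libraries. It was far above in every NIC eCA library (log2 fold change 1.52, SE 0.16, limma adjusted p = 0.00922). Cd14, the lipopolysaccharide co-receptor, had 686.7, 450.7 and 640.6 RPKM in Ctrl and 1239.6, 1083 and 1104.7 RPKM in NIC eCA libraries, also separated (0.97, SE 0.19, adjusted p = 0.0259). Cx3cr1, the fractalkine receptor of resident and patrolling cells, had 14.3, 20.4 and 15.6 RPKM in Ctrl and 3.26, 6.48 and 4.38 RPKM in NIC eCA libraries and fell in every one of them (-1.66, SE 0.22, adjusted p = 0.0111). Ctss, a lysosomal protease and the most abundant of the list, had overlapping groups (1260.5, 621.1 and 899.3 against 1083.0, 1031.6 and 519.7 RPKM), as had Lgmn (379.6, 265.1 and 276.3 against 612.8, 487.5 and 365.6 RPKM). When 1 library was left out, Cx3cr1 was called in all 6 fits, Fcgr1 in 5 (adjusted p = 0.0504 without NIC eCA replicate 2) and Cd14 in 3 (up to 0.107, lost without Ctrl replicate 2, NIC eCA replicate 1 or NIC eCA replicate 2). Cd14 was also lost with no filter on low values. The counts higher and lower were 2 and 2 without Ctrl replicate 1, 1 and 1 without Ctrl replicate 2 or NIC eCA replicate 1, 0 and 1 without NIC eCA replicate 2, and 3 and 2 without NIC eCA replicate 3.

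The list of genes around TREM2 holds its adaptor DAP12 (Tyrobp), related receptors and genes of the lipid-associated macrophage state. All 16 were tested, 9 were called higher and 0 lower, 5 had overlapping groups, and the median log2 fold change was 0.73 (0.68 to 0.94 under the other scalings). Limma called 0 lower at an unadjusted p under 0.05 and 0 with voom. Fabp5, a fatty acid binding protein, had 95.3, 57.4 and 76.6 RPKM in Ctrl and 338.9, 330.5 and 246.4 RPKM in NIC eCA libraries. It rose in every NIC eCA library with a log2 fold change of 2.00 (SE 0.21, limma adjusted p = 0.00922). Spp1, which encodes osteopontin, had 82.7, 142.9 and 186.1 RPKM in Ctrl and 601.4, 322.6 and 481.6 RPKM in NIC eCA libraries (1.80, SE 0.33, adjusted p = 0.0231). Gpnmb, a lysosomal and surface glycoprotein, had 16.1, 7.92 and 10.6 RPKM in Ctrl and 39.2, 37.4 and 46.1 RPKM in NIC eCA libraries (1.79, SE 0.23, adjusted p = 0.0109). In all 3 genes the lowest NIC eCA library was above the highest Ctrl library. Ctsl, a lysosomal protease, had 199.6, 167.0 and 219.2 RPKM in Ctrl and 585.1, 550.1 and 521.7 RPKM in NIC eCA libraries (1.5, SE 0.15, adjusted p = 0.00835).

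The remaining genes named from that list were galectin-3, cathepsin B and a receptor of granulocytes and monocytes. Lgals3, which encodes galectin-3, had 263.0, 246.8 and 335.8 RPKM in Ctrl and 785.9, 934.3 and 663.3 RPKM in NIC eCA libraries (log2 fold change 1.49, SE 0.18, limma adjusted p = 0.0107). Ctsb had 402.9, 321.7 and 362.7 RPKM in Ctrl and 612.8, 559.1 and 507.2 RPKM in NIC eCA libraries (0.63, SE 0.15, adjusted p = 0.0373). Trem1, which amplifies inflammation in neutrophils and monocytes, had 15.6, 10.3 and 23.4 RPKM in Ctrl and 33.4, 33.2 and 37.4 RPKM in NIC eCA libraries (1.10, SE 0.26, adjusted p = 0.0366). The groups of these 3 genes were separated as well. Tyrobp, chosen after its values were seen, had 323.1, 253.6 and 285.4 RPKM in Ctrl and 479.7, 435.9 and 344.8 RPKM in NIC eCA libraries and was not called (0.54, SE 0.17, adjusted p = 0.068). The groups of Trem2 itself overlapped while those of its adaptor were separated, and the difference between the genes was not tested. The count of 9 rested on single libraries. It was 5 without Ctrl replicate 2, 4 without NIC eCA replicate 1 and 1 without NIC eCA replicate 2, where Ctsl was the gene still called and Fabp5, Gpnmb and Lgals3 each had an adjusted p of 0.0504. Spp1 was called in 4 of the 6 fits (adjusted p of up to 0.1005, lost without NIC eCA replicate 1 or 2), Ctsb in 2 (up to 0.151, lost without Ctrl replicate 2 or 3 or NIC eCA replicate 1 or 2) and Trem1 in 1 (up to 0.132, that without Ctrl replicate 3). The list count fell to 7 with a replicate block, 4 with no filter on low values and 7 after quantile normalization. Ctsb was lost in each of these fits. Spp1 was lost with no filter, and Trem1 with no filter and after quantile normalization.

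Csf1r's own pathway showed 0 calls. Of 13 genes of its ligands, related receptors, signaling molecules and the factors that drive macrophage fate, 12 were tested, 0 were called in either direction by limma, and voom also called 0. At an unadjusted p under 0.05, 1 was higher and 0 were lower. The median log2 fold change was -0.06, with 0.04 after trimmed mean scaling, 0.01 with voom and -0.159 after quantile normalization. It was 0.07 without Ctrl replicate 3, -0.22 without Ctrl replicate 2, -0.165 without NIC eCA replicate 1, and 0.05 at a mean of at least 5 RPKM. Spi1, which encodes PU.1 and has the older name Sfpi1 in the table, had 69.6, 72.8 and 91.4 RPKM in Ctrl and 112.3, 98.5 and 84.0 RPKM in NIC eCA libraries. Csf2ra had 70.8, 58.5 and 89.2 RPKM in Ctrl and 79.3, 56.8 and 57.2 RPKM in NIC eCA libraries, and Cebpa, a myeloid transcription factor, 103.1, 55.7 and 59.6 against 67.2, 47.0 and 28.0 RPKM. All 3 had overlapping groups. Without Ctrl replicate 3, 1 gene of the list was called higher.

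**Figure D3:**
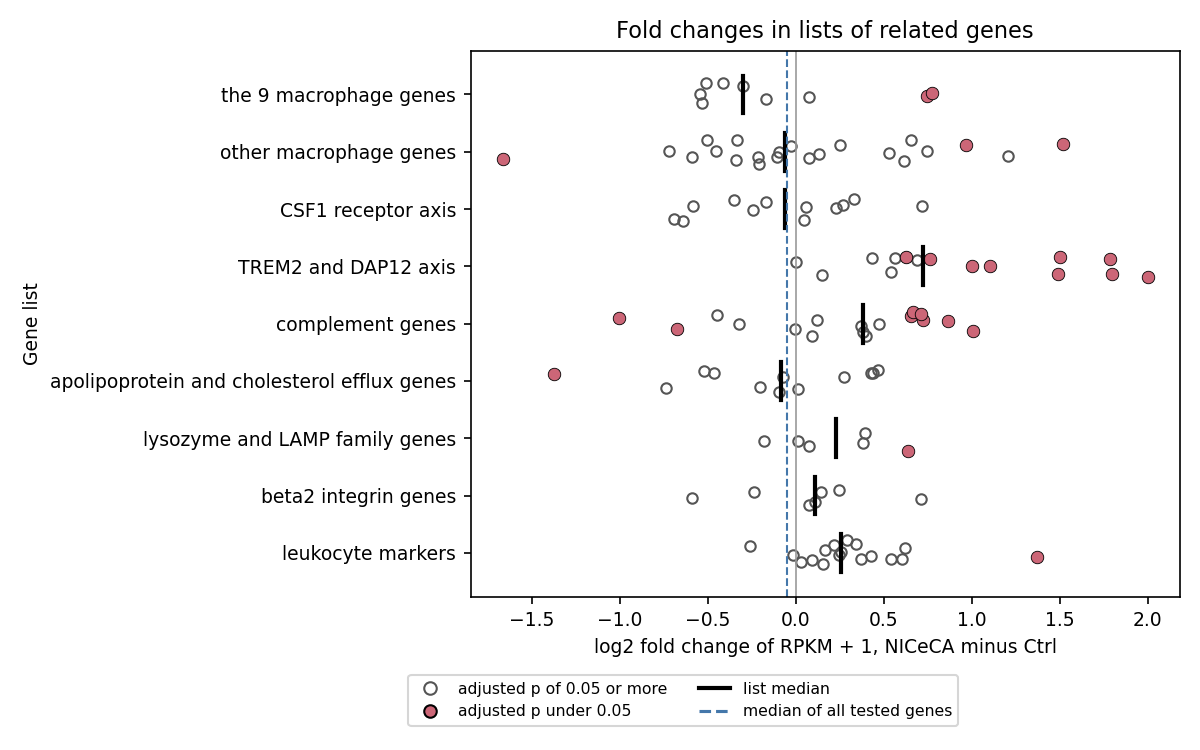
Log2 fold changes (NIC eCA minus Ctrl, 3 mice each) of each tested gene, 1 row per gene list, with filled points at a limma adjusted p under 0.05, a black line at each list median and a dashed line at the median of all tested genes (-0.05). The list around TREM2 and DAP12 has 9 filled points of 16 and a median of 0.73, and the 9 macrophage genes have 2 and a median of -0.30, which was -0.05 without Ctrl replicate 1 or NIC eCA replicate 3.

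Complement genes, to which C1q gives the start, went in both directions. Of 19 genes, 17 were tested, 6 were called higher and 2 lower, with a median log2 fold change of 0.38 (0.27 to 0.47 under the other scalings and 0.237 without Ctrl replicate 2). With a replicate block, and also with no filter, 0 were called higher and 1 lower. After quantile normalization 2 were called higher and 2 lower. Cfp, which encodes properdin, the stabilizer of the alternative pathway, had 98.2, 92.2 and 129.4 RPKM in Ctrl and 280.0, 210.0 and 165.1 RPKM in NIC eCA libraries (1.01, SE 0.22, limma adjusted p = 0.0330). C3ar1, the receptor for C3a, had 60.8, 46.2 and 62.3 RPKM in Ctrl and 104.5, 94.2 and 82.0 RPKM in NIC eCA libraries (0.73, SE 0.16, adjusted p = 0.0348). Cd93, a surface protein of endothelial and myeloid cells, had 113.0, 61.4 and 83.5 RPKM in Ctrl and 147.5, 151.8 and 159.3 RPKM in NIC eCA libraries (0.87, SE 0.21, adjusted p = 0.0403). The NIC eCA libraries of these 3 genes were all above the Ctrl libraries, as were those of Cd59a, an inhibitor of lysis, at 2.91 to 4.47 against 1.37 to 2.37 RPKM (0.71, adjusted p = 0.0437). C4b, which encodes the C4 that C1 cleaves, had 13.3, 20.7 and 19.7 RPKM in Ctrl and 8.98, 7.96 and 7.88 RPKM in NIC eCA libraries (-1.005, SE 0.17, adjusted p = 0.0211). C4b fell in every NIC eCA library. The most abundant of the list, Calr, was at 177.6, 213.2 and 214.4 against 289.2, 249.1 and 261.1 RPKM and was not called (0.40, adjusted p = 0.0833). Of the 6 fits without 1 library, C4b was called in 4 (lost without NIC eCA replicate 1 or 2, adjusted p of up to 0.0968) and C3ar1 in 3 (lost without Ctrl replicate 2 or NIC eCA replicate 1 or 2, up to 0.1405). Cfp was called in 2 (without Ctrl replicate 3 or NIC eCA replicate 3, up to 0.128 in the others), Cd59a in 2 (without Ctrl replicate 1 or NIC eCA replicate 3, up to 0.171) and Cd93 in 1 (without Ctrl replicate 1, up to 0.147). The counts higher and lower were 3 and 1 without Ctrl replicate 1, 0 and 2 without Ctrl replicate 2, 4 and 1 without Ctrl replicate 3, 0 and 0 without NIC eCA replicate 1, 0 and 0 without NIC eCA replicate 2, and 3 and 1 without NIC eCA replicate 3.

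Among genes of lipoproteins and cholesterol efflux, the company of Apoe, 12 of 15 were tested, 0 were called higher and 1 lower. At an unadjusted p under 0.05, 1 was higher and 4 were lower, and with voom 0 were higher and 1 lower. The median log2 fold change was -0.08 (0.01 after trimmed mean scaling, -0.162 after quantile normalization and -0.02 with voom). Without 1 library it went from -0.183 (Ctrl replicate 2) to -0.01 (Ctrl replicate 1). Pltp, the phospholipid transfer protein, had 246.8, 169.6 and 181.0 RPKM in Ctrl and 98.2, 80.5 and 54.1 RPKM in NIC eCA libraries. It fell in every NIC eCA library (-1.37, SE 0.24, limma adjusted p = 0.0213), a call lost without NIC eCA replicate 2 (adjusted p = 0.0904) and with no filter. The counts higher and lower were 0 and 2 without Ctrl replicate 1, 1 and 1 without Ctrl replicate 3, and 0 and 0 without NIC eCA replicate 2. Lrp1, an Apoe receptor, had 97.6, 92.4 and 136.7 RPKM in Ctrl and 94.7, 66.0 and 74.0 RPKM in NIC eCA libraries, with overlap. Abca1, the cholesterol exporter, had 64.5, 32.4 and 55.7 RPKM in Ctrl and 65.8, 69.2 and 68.7 RPKM in NIC eCA libraries, higher in each but not called (0.47, SE 0.24, adjusted p = 0.196).

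Lyz2 and Cd68 have relatives among lysosomal genes. Of 8 genes of lysozyme, lysosomal membrane proteins and lysosomal markers, 6 were tested, 1 was called higher and 0 lower, with 0 lower also at an unadjusted p under 0.05 and with voom. The median log2 fold change was 0.23 (-0.08 after quantile normalization and 0.152 without Ctrl replicate 2). Ctsd, the lysosomal protease cathepsin D, had 624.1, 458.6 and 475.5 RPKM in Ctrl and 839.6, 796.6 and 765.4 RPKM in NIC eCA libraries. It rose in every NIC eCA library (0.64, SE 0.16, limma adjusted p = 0.0418), and of the 6 fits without 1 library it was called in that without Ctrl replicate 1, with an adjusted p of up to 0.158 in the others. Ctsd was also not called with a replicate block, with no filter and after quantile normalization. Lamp1, of the family to which the Cd68 product belongs, had 260.4, 207.8 and 251.3 RPKM in Ctrl and 358.6, 310.6 and 270.6 RPKM in NIC eCA libraries, separated but not called (0.38, SE 0.16, adjusted p = 0.130).

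The partners of Itgam did not share its call. Of 9 genes of β2 integrins, their ligands and their activators, 7 were tested and 0 were called in either direction by limma. At an unadjusted p under 0.05, 1 was higher and 0 were lower, and voom called 0. The median log2 fold change was 0.11 (-0.04 after quantile normalization, 0.21 with trimmed mean scaling and 0.18 with voom). Without 1 library it went from -0.09 (Ctrl replicate 2) to 0.311 (Ctrl replicate 3). Itgb2 had 122.4, 95.1 and 173.4 RPKM in Ctrl and 158.8, 140.8 and 113.5 RPKM in NIC eCA libraries, with overlap (0.11, SE 0.23, limma adjusted p = 0.764). Tln1, which encodes the integrin activator talin, had 69.6, 69.5 and 94 RPKM in Ctrl and 72.7, 59.7 and 63.4 RPKM in NIC eCA libraries, and Fermt3, which encodes kindlin-3, 57.0, 45.1 and 57.9 against 84.4, 65.2 and 45.6 RPKM. Both overlapped. Without Ctrl replicate 1, 1 gene of the list was called higher. That Itgam and Itgb2 differed in their change was not tested.

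Of general leukocyte genes, all 17 were tested, 1 was called higher and 0 lower, with 0 lower at an unadjusted p under 0.05 and with voom, and the median log2 fold change was 0.26 (0.02 after quantile normalization, 0.125 without Ctrl replicate 2 and 0.4 without NIC eCA replicate 3). Cd53, a tetraspanin, had 46.6, 35.1 and 70.7 RPKM in Ctrl and 120.1, 148.9 and 117.1 RPKM in NIC eCA libraries, above in each (1.37, SE 0.24, limma adjusted p = 0.0222). Cd53 was no longer called in the fits without NIC eCA replicate 1 or 2 (adjusted p of up to 0.0981), nor in that with no filter. The count was 0 in those fits and 2 without Ctrl replicate 3. The most abundant, Cd52, Coro1a and Fcer1g, had overlapping groups, at 205.6, 217.5 and 289.7 against 330.7, 290.9 and 213.1 RPKM for Cd52.

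Most tested markers of neutrophils were called higher in NIC eCA TECs, as were Cd68 and Itgam. Of 13 markers, 12 are in the table and 10 were tested, and 9 were called higher and 0 lower, with 0 lower also at an unadjusted p under 0.05 and with voom and a median log2 fold change of 2.00. Their summed level was 197.0, 260.5 and 355.0 RPKM in Ctrl and 822.7, 1141 and 1954 RPKM in NIC eCA libraries. S100a9 was the most abundant, at 34.4, 105.3 and 118.1 RPKM in Ctrl and 193.6, 307.3 and 742.2 RPKM in NIC eCA libraries, while the granule genes Camp and Ltf had means under 1 RPKM. The count was 4 without NIC eCA replicate 1 and 3 without NIC eCA replicate 2, and S100a9 was called in 1 of the 6 fits without 1 library, that without Ctrl replicate 3 (adjusted p of up to 0.144 in the others). With no filter 6 neutrophil markers were called higher, and after quantile normalization 7, and S100a9 was not called in either fit. The sum was highest in NIC eCA replicate 3, where Itgam and Cd68 were not highest and where C1qa, Lyz2 and Apoe were lowest. Of 8 monocyte markers, 1 was called higher and 0 lower (0 lower at an unadjusted p under 0.05 and with voom), with sums of 325.8, 396.5 and 861.2 RPKM in Ctrl and 751.1, 575.1 and 596.1 RPKM in NIC eCA libraries. Fn1 was the most abundant, at 151.9, 196.1 and 460.2 against 173.3, 97.5 and 125.7 RPKM, and had a negative log2 fold change (-0.89, SE 0.40, limma adjusted p = 0.151), whereas those of the other 7 were positive, so the overlapping sums mix genes of opposite sign. The median of the 8 was 0.70 (0.51 after quantile normalization, and 0.45 without Ctrl replicate 1 to 1 without Ctrl replicate 3). The monocyte count was 3 without Ctrl replicate 3 and 0 without NIC eCA replicate 2. Of 6 platelet markers, 3 were tested and 2 were called higher (median 2.98), with sums of 125.7, 113.0 and 196.1 RPKM in Ctrl and 1306.7, 1210.6 and 1174.2 RPKM in NIC eCA libraries. Pf4 was the most abundant, at 116.3, 102.1 and 172.3 against 1125.6, 1035.1 and 889.3 RPKM, and the defining platelet receptors Gp1ba, Gp9 and Gp6 had means of 0.631, 0.922 and 0.0427 RPKM. The part of neutrophils, monocytes and platelets in the values of Cd68, Itgam and the genes around TREM2 was not tested.

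The 12 endothelial markers had 1 call higher (Flt1), the median log2 fold change being 0.66 (0.425 without Ctrl replicate 2 and 1.04 without Ctrl replicate 1). The count was 8 without Ctrl replicate 1 and 0 without any other 1 library, with a replicate block, with no filter and after quantile normalization. Dendritic cell markers, led by Siglech, had 1 of 7 called lower, with sums of 22.7 to 42.4 RPKM in Ctrl and 33.6 to 47.5 RPKM in NIC eCA libraries. T and NK cell markers, led by Nkg7, had 0 calls of 10, with sums of 48.4 to 72.5 and 51.6 to 63.6 RPKM. B cell markers, led by Cd79b, had 0 calls of 3, with sums of 3.13 to 14 and 6.77 to 17.6 RPKM. Fibroblast markers, led by Col3a1, had 3 of 6 called lower (median -0.85), with sums of 321.2, 558.3 and 386.3 against 195.7, 153.2 and 310.7 RPKM. Pericyte markers, led by Rgs5, had 2 of 6 called higher (median 0.93), with sums of 34.0, 25.5 and 40.5 against 66.7, 56.3 and 101.8 RPKM. Mast cell markers, led by Tpsb2, had 0 calls of 5, with a sum of 105.3 RPKM in Ctrl replicate 1 and 18.1 to 52.7 RPKM in the others. Erythroid markers, led by Hbb-bs, had 0 calls of 4, with sums of 15.6 to 27.3 and 5.63 to 23.7 RPKM. Epithelial markers, led by Cdh1, had 1 of 2 called lower, and Epcam, Krt8, Krt19 and Cldn4 had means under 1 RPKM. For lists with 0 calls, limma's unadjusted p was under 0.05 for 1 T and NK cell marker (lower) and for 0 B cell, mast cell and erythroid markers, and voom called 0 in each of these lists. Leaving out 1 library, the counts moved to 3 mast cell markers higher (without Ctrl replicate 1) and 2 erythroid markers lower (without NIC eCA replicate 3). The fibroblast count was 0 without Ctrl replicate 2 or 3 or NIC eCA replicate 1 or 2 and with no filter, 1 with a replicate block or with trimmed mean or quantile scaling, and 2 with voom. The pericyte count was 1 without any 1 Ctrl library and 0 without any 1 NIC eCA library, 1 with a replicate block, 0 with no filter or quantile normalization, and 3 with trimmed mean scaling or voom. The dendritic cell count was 0 without Ctrl replicate 2 or NIC eCA replicate 1 or 2 and with no filter. The epithelial count was 0 without any 1 library but NIC eCA replicate 3, with a replicate block, with no filter and after quantile normalization.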

How the data were processed

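TECs of 3 NIC eCA and 3 Ctrl mice were compared from RPKM values that the authors deposited. The submitters' processing notes name TopHat2 and mm9, but the positions match GRCm38. The sources used here do not give counting settings or strand. Row length in bases is another deposited column. RPKM steps gave whole reads (100.0% of values under 1000 reads within 0.05 reads), hence the depths.

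RefSeq rows with a mean of at least 1 RPKM were tested as log2(RPKM + 1) in limma (version 3.58.1, R 4.3.3) by lmFit and eBayes with its trend option, two-sided, at a Benjamini-Hochberg adjusted p under 0.05. The fit was tried on reads simulated with known changes, and no outcome of that trial is reported here. P-values measure the spread between mice.

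The 9 genes and all lists were chosen with earlier results of these data known. Named from lists were called genes (up to 6, by size) and the 3 most abundant, and of markers the most abundant and any at 0 in every library (0 found), and 1 gene that this rule takes in is not reported here. Promoter entries matched 7 of the 9 genes. Alternatives were a replicate block, leaving out each library, a pseudocount of 0.1, a filter at 5 RPKM or none, trimmed mean and quantile scaling, no trend, voom on recovered reads, an adjusted p under 0.1 and FANTOM3 rows included. Other experiments of the study were not analysed here.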

Additional observations from a re-analysis of the deposited data

How the results depend on the processing

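Cd68 and Itgam kept a positive log2 fold change under every alternative, from 0.37 to 0.85 and from 0.38 to 0.94. The number of the 9 genes called higher was 0 with a replicate block, 1 with no filter, 0 after quantile normalization and 0 to 2 without 1 library; the number lower was 0 under every alternative. The samples share only a number: deviations of same-numbered libraries had r of 0.122, -0.343 and -0.178, and the study's methods speak of pairs without naming them. With the replicate block, adjusted p was 0.0566 for Cd68 and 0.0863 for Itgam, and calls over all genes were 327 higher and 209 lower.

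Over all tested genes, calls higher and lower were 260 and 105 with no filter, 1099 and 613 with trimmed mean scaling, 446 and 325 with quantile normalization and 1346 and 1992 at an adjusted p under 0.1. With a mean of at least 5 RPKM 579 were lower. Without 1 library they ranged from 26 to 913 and from 1 to 832. The median log2 fold change of all genes was -0.05, 0.04 with trimmed mean scaling, -0.02 with quantile normalization and 0.01 with voom.

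For lists of related genes, the replicate block gave 0 complement genes higher and 1 lower, and 0 lysozyme and LAMP genes. With no filter there were 1 other macrophage gene, 4 genes around TREM2, 0 complement, 0 lysozyme and LAMP and 0 leukocyte genes higher, and 1 complement and 0 lipoprotein genes lower. Quantile normalization gave 2 complement and 0 lysozyme and LAMP genes higher, and 3 other macrophage, 2 lipoprotein and 1 β2 integrin genes lower. Trimmed mean scaling gave 1 lipoprotein and 2 leukocyte genes higher and 1 complement gene lower. At an adjusted p under 0.1, 1 CSF1 receptor axis, 1 lipoprotein, 1 β2 integrin and 2 leukocyte genes were higher, and 5 other macrophage and 2 lipoprotein genes lower. Other macrophage genes (22, apart from the 9) lower numbered 2 without the trend and 2 with FANTOM3 rows. Without 1 library the counts higher ranged from 0 to 3 (other macrophage), 1 to 10 (TREM2), 0 to 4 (complement), 0 to 2 (leukocyte) and 0 to 1 (CSF1 receptor axis, lipoprotein, lysozyme and LAMP, β2 integrin), and the counts lower from 1 to 2 (other macrophage), 0 to 2 (complement) and 0 to 2 (lipoprotein).

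Signs turned for genes that were not called. Without 1 library, log2 fold changes went from -0.31 to 0.10 for Lyz2 (0.03 without Ctrl replicate 1, 0.10 without NIC eCA replicate 3) and from -0.11 to 0.41 for Trem2 (-0.07, -0.11 and -0.01 without Ctrl replicate 2, Ctrl replicate 3 and NIC eCA replicate 1). They went from -0.35 to 0.25 for Ctss and from -0.58 to 0.11 for Lyz1 (0.16 and 0.11 without Ctrl replicate 1, 0.25 and 0.04 without NIC eCA replicate 3). Without Ctrl replicate 2 they were lowest for Itgb2 (-0.095 to 0.34), Siglech (-0.22 to 0.64), Cd79b (-0.12 to 0.47, with -0.01 without NIC eCA replicate 3) and Tpsb2 (-0.0033 to 1.19). Quantile normalization gave Lyz2 0.0084, Trem2 -0.24, Spi1 -0.0097, Calr -0.0061, Lamp1 -0.029, Itgb2 -0.26, Fermt3 -0.025, Cd52 -0.23 and Coro1a -0.059, and trimmed mean scaling gave Ctss 0.0073. The cause was not tested. With at least 2712 reads per library on each of the 9 genes, depth limited them less than the number of mice.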
